A study of Sus scrofa with 8 samples.

Results

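Genes that handle iron, 10 in number, were read in the hearts of wild-type miniature pigs: TFRC, STEAP3 and SLC11A2 for uptake, FTH1, FTL and NCOA4 for storage, SLC40A1 and CP for export, and ACO1 and IREB2 for sensing. They were chosen by name, as the rows of a deposited table of 31014 genes that carry these symbols. All 10 were found once each and all 10 passed the filter on low counts, among 14938 genes that did. RNA sequencing had been run on whole heart tissue from 3 samples given vehicle and 5 given doxorubicin, an anthracycline used against cancer. Both groups are labelled WT, and the labels give no other allele. Dose, schedule, breed, age and sex are not stated in the labels. The title of the series asks how the nuclear receptor ERRα and mitochondrial metabolism bear on damage to the heart by anthracyclines.

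Iron reaches heart muscle cells mainly bound to transferrin, which the transferrin receptor TFRC carries into endosomes. There STEAP3, a reductase, turns ferric into ferrous iron, and SLC11A2 (also called DMT1) moves it into the cytosol. Iron that is not used is stored in ferritin, a shell of heavy chains (FTH1), which oxidise iron, and light chains (FTL), which help it to form a mineral core. NCOA4 takes ferritin to the lysosome, which frees the iron. Ferroportin, the product of SLC40A1, is the known exporter of iron from cells, and ceruloplasmin (CP) oxidises the iron that leaves. The iron regulatory proteins made from ACO1 and IREB2 bind hairpins in mRNA when iron is scarce. They then block translation of ferritin and stabilise the mRNA of TFRC, so part of this control does not change mRNA levels. Doxorubicin binds iron, and iron in heart mitochondria is a known part of anthracycline injury.

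Library totals ran from 16105242 to 18267178 counts. Markers of heart muscle were abundant, and MYH7, the slow cardiac myosin, averaged 33631 CPM in vehicle (the usual depth-scaled count, here divided by library sizes that TMM had corrected for composition). Markers of several other cell types moved with treatment, where 13.6% of all genes were called higher and 11.3% lower by the test given below. Of 9 tested macrophage markers 5 rose and 0 fell, and the summed level of that list was 147 to 199 CPM in vehicle and 248 to 754 CPM after doxorubicin. No macrophage marker was without reads, though MARCO was below the filter. Of 7 fibroblast markers 3 rose (COL1A1, COL3A1 and LUM) and 1 fell (PDGFRA). COL1A2, DCN and DPT did not pass (log2 fold changes 3.09, −0.04 and −0.13). The sums of this list were 1353 to 1561 CPM against 2574 to 27032 CPM, the highest in doxorubicin 5. Most of that highest sum was collagen mRNA (COL1A1 6607, COL1A2 7563 and COL3A1 11487 CPM), so it does not measure fibroblast content. All 4 tested lymphocyte markers rose (sums 4.43 to 7.96 against 11.7 to 29.1 CPM), and 2 of 3 tested adipocyte markers fell (sums 259 to 414 against 38.1 to 144 CPM). FABP4 made up most of the adipocyte sum in vehicle (252, 319 and 388 CPM), so that sum follows mostly 1 gene and does not measure adipocyte content. PLIN1 and LEP were below the filter, and LEP had reads only after doxorubicin (1, 2, 2, 0 and 11 in doxorubicin 1 to 5). Sums of 8 cardiomyocyte markers were 59430 to 66632 CPM in vehicle and 35562 to 63855 CPM after doxorubicin, and 1 of the 8, RYR2, fell. Of 7 endothelial markers 0 rose and 1 fell (sums 1180 to 1541 against 471 to 1447.5 CPM). Of 6 smooth muscle and pericyte markers 2 rose and 1 fell (sums 519 to 1160 against 574 to 4360 CPM). The sums of these last lists overlapped between the groups. In whole tissue, fewer cells of a type and less RNA per cell cannot be told apart. Doxorubicin 5 correlated least with its own group, with a mean r of 0.912 over genes against 0.941 or more for each of the other 7 libraries. Nothing in the labels ties each sample to its own animal, so the p-values speak of the spread between samples, which may be technical.

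Doxorubicin was compared with vehicle by edgeR's quasi-likelihood test over all 14938 genes, with Benjamini-Hochberg adjustment and a threshold of 0.05. Among the 10 iron genes 1 rose (CP), 1 fell (STEAP3) and 8 did not pass. CP had under 10 reads in each vehicle library and passed the filter on low counts only through the doxorubicin libraries, where it is high, so the count of rises is a description and no support for a change in these genes. Over all genes 13.6% were called higher and 11.3% lower, so 1 of 10 in each direction is close to the background. With library size as the only scaling all genes gave 4093 higher and 499 lower calls, against 2033 and 1681, and the iron genes 2 (CP and FTL) and 0. Levels in the groups did not overlap for 3 of the 10 (FTL, NCOA4 and STEAP3), against 34.9% of all genes (17.1% higher, 17.8% lower). The median log2 fold change of the 10 was −0.05, and that of all genes 0.02. FTL had the next largest difference after CP, and its share of ferritin reads was higher in all 5 doxorubicin libraries than in any vehicle library. Without doxorubicin 5, 2 of the 10 were called higher (CP and FTL) and 2 lower (NCOA4 and STEAP3), and all genes then gave 2472 higher and 2265 lower calls.

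**Figure D1:**
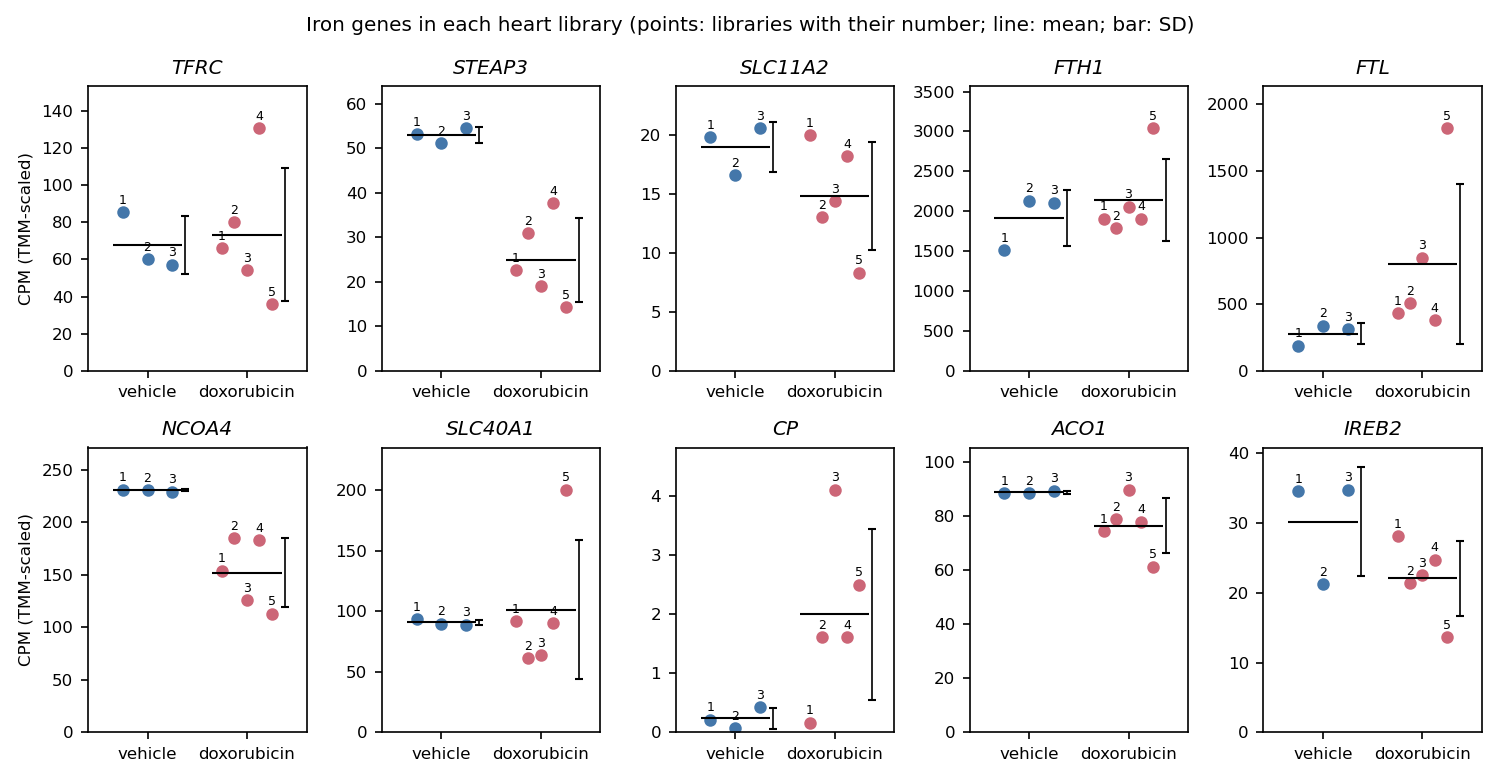
Level of each of the 10 iron genes (CPM, linear axes from 0) in 3 vehicle and 5 doxorubicin libraries, with points numbered by library, a line at the group mean and a bar for the SD. STEAP3 and NCOA4 lie lower and FTL higher in all 5 doxorubicin libraries than in any vehicle library, and doxorubicin 5 is at an end of the range for most genes.

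Uptake genes differed from each other. STEAP3 (gene 100620912, chromosome 15, 24736556 to 24785376 on Sscrofa11.1) was at 53.2, 51.1 and 54.5 CPM in vehicle 1 to 3, and at 22.6, 30.9, 19.0, 37.7 and 14.3 CPM in doxorubicin 1 to 5. Every doxorubicin library lay below every vehicle library, with doxorubicin 4 the closest and doxorubicin 5 the farthest. The mean went from 52.9 ± 1.72 to 24.9 ± 9.40 CPM (SD, n = 3 and n = 5), a fall of 2.13-fold (log2 fold change −1.09, SE 0.28, edgeR adjusted p = 0.0217). The call was lost without any single vehicle library (adjusted p = 0.0588 to 0.0811) and with library size as the only scaling (−0.74, adjusted p = 0.0598). Calls over all genes also fell without a vehicle library, from 3714 to 649, 1969 and 712 without vehicle 1, 2 and 3.

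TFRC (gene 397062, chromosome 13, 133976765 to 133997554) was at 85.4, 60.1 and 57.2 CPM in vehicle and at 66.0, 79.9, 54.2, 131 and 35.8 CPM after doxorubicin. The 2 ends of the whole range, doxorubicin 4 and doxorubicin 5, both belong to the treated group, and the groups overlap. The log2 fold change was 0.12 (SE 0.36, edgeR adjusted p = 0.832), and it was −0.20 without doxorubicin 4. The coefficient of variation of TFRC was 23.0% in vehicle and 49.0% after doxorubicin. Red cell precursors are rich in this receptor. Red cell markers summed to 39.6 to 98.1 CPM in vehicle and 7.20 to 89.5 CPM after doxorubicin. HBB made up most of that sum in vehicle (36.7, 48.8 and 93.1 CPM), so it cannot tell precursors from mature red cells. HBM, HBZ, SLC4A1 and AHSP were below the filter, and HBA had no row under that symbol. The red cell sum was 31.9 CPM in doxorubicin 4, within the range of the other libraries. The part of red cells in the level of TFRC was not tested.

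SLC11A2, the endosomal iron carrier (gene 733595, on an unplaced scaffold, 341375 to 380525), ranged from 16.6 to 20.55 CPM in vehicle and from 8.30 to 19.97 CPM after doxorubicin. Its log2 fold change was −0.36 (SE 0.26, edgeR adjusted p = 0.321). Doxorubicin 5 had the lowest level, and the other 4 doxorubicin libraries lay between 13.0 and 19.97 CPM. Limma voom called SLC11A2 lower (−0.43, adjusted p = 0.0307), as it did 4021 of all 14938 genes. None of the 3 uptake genes was called higher by edgeR.

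Storage showed the widest contrast between genes of 1 complex. FTL (gene 397035, chromosome 6, 54231121 to 54232756) was at 189.7, 339.7 and 312 CPM in vehicle and at 434, 508, 850.1, 379.9 and 1822 CPM in doxorubicin 1 to 5. All 5 doxorubicin libraries were above all 3 vehicle libraries, and they spread over a wide range, from doxorubicin 4 just above vehicle to doxorubicin 5. The means were 280.4 ± 79.8 and 799 ± 601 CPM (SD, n = 3 and n = 5). The log2 fold change of 1.51 (SE 0.54, a ratio of 2.85) had an edgeR adjusted p of 0.0648 and did not pass. Without doxorubicin 5 the ratio was smaller but better determined (log2 fold change 0.96, adjusted p = 0.0419). FTL passed under 9 of 20 alternatives, DESeq2 among them (adjusted p = 0.00886), where 2824 of all 14938 genes were called higher. Its log2 fold change was 0.90 (adjusted p = 0.190) when the trend with gene density was removed within libraries. With limma voom it was 0.76 (adjusted p = 0.0154), where 4030 of all 14938 genes were called higher.

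FTH1 (gene 397030, chromosome 2, 9535051 to 9537979) was at 1512, 2134 and 2108 CPM in vehicle and at 1909, 1790.4, 2058, 1909 and 3043 CPM after doxorubicin. Doxorubicin 1 to 4 fell within the vehicle range, and doxorubicin 5 was above it. The log2 fold change was 0.16 (SE 0.25, edgeR adjusted p = 0.666), and 0.00 without doxorubicin 5. It turned to −0.13 when the trend with gene density was removed within libraries.

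The share of heavy chain among ferritin reads does not depend on the scaling of libraries. FTH1 made up 88.9%, 86.3% and 87.1% of FTH1 and FTL reads in vehicle 1 to 3, and 81.5%, 77.9%, 70.8%, 83.4% and 62.5% in doxorubicin 1 to 5. All 5 doxorubicin libraries had a lower share of heavy chain than all vehicle libraries. There were 6.28 to 7.97 FTH1 reads per FTL read in vehicle and 1.67 to 5.02 after doxorubicin. On the log2 scale the ratio went from 2.80 ± 0.18 to 1.66 ± 0.65 (SD, n = 3 and n = 5), a difference of −1.14. The exact permutation test over 56 splits gave a two-sided p of 0.0357, the smallest this design allows. Adjusted over 3 ratios it was 0.107, which did not pass. The difference kept its sign without any single library, from −1.31 to −0.91, and it was −0.91 without doxorubicin 5. Ferritin reads of both chains together took 0.146% to 0.211% of all counts in vehicle and 0.245% to 0.535% after doxorubicin. Those shares do depend on the rest of the library: genes of mitochondrial DNA took 23.6% to 27.5% of counts in vehicle and 8.70% to 16.6% after doxorubicin. The sums of the macrophage, fibroblast and lymphocyte lists moved in the same direction as FTL. The part of any of these cells in its level was not tested. The macrophage sums were 248, 458, 554, 461 and 754 CPM in doxorubicin 1 to 5. In the same order the fibroblast sums were 2782, 4468, 6323, 2574 and 27032 CPM, and the lymphocyte sums 11.7, 20.4, 29.1, 21.9 and 16.8 CPM.

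**Figure D2:**
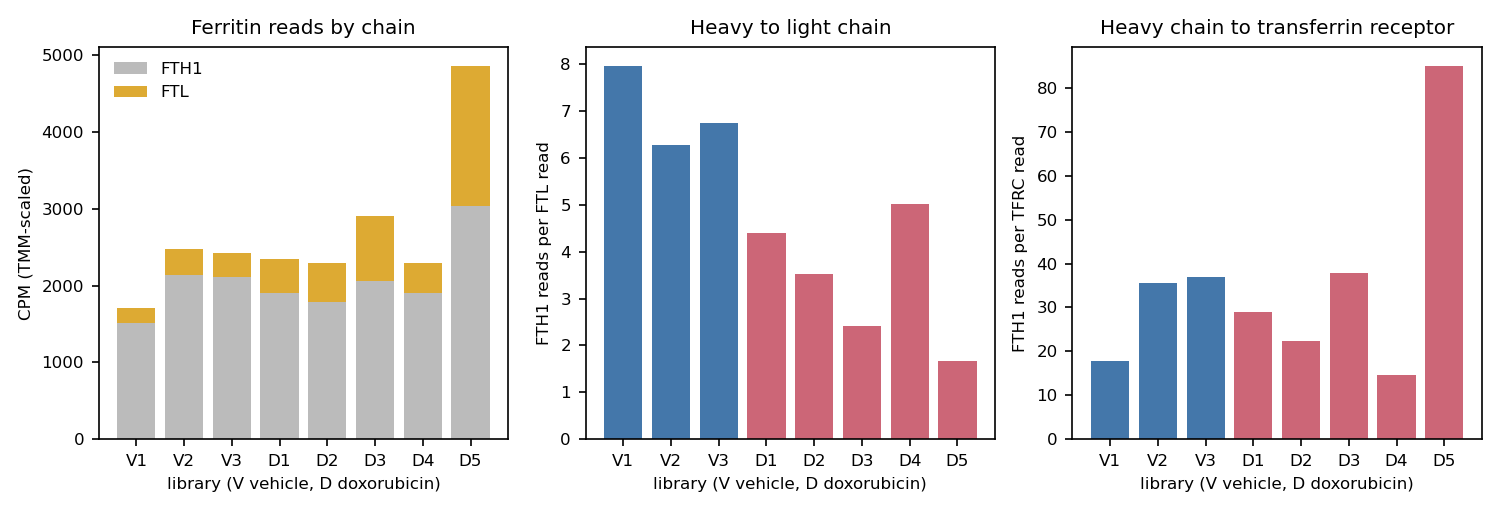
Left, CPM of FTH1 (grey) and FTL (yellow) stacked for each of 8 libraries; middle, FTH1 reads per FTL read; right, FTH1 reads per TFRC read. The middle panel falls from 6.28 or more in vehicle to 5.02 or less after doxorubicin, and the right panel shows overlapping groups with doxorubicin 5 highest at 85.1.

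NCOA4 (gene 100156184, chromosome 14, 90505614 to 90531302) was at 231, 231 and 229 CPM in vehicle and at 154, 185, 126, 183 and 113 CPM after doxorubicin. The 3 vehicle libraries were nearly equal, with a coefficient of variation of 0.463%, and all 5 doxorubicin libraries were below them. The log2 fold change was −0.60 (SE 0.20), and the edgeR adjusted p of 0.0503 just missed the threshold. It passed under 8 of 20 alternatives, DESeq2 among them (adjusted p = 0.0178), where 2121 of all 14938 genes were called lower. With library size as the only scaling it was −0.25 (adjusted p = 0.333), where the median of all genes moved by 0.36 to 0.38.

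Export genes also differed. CP (gene 406870, chromosome 13, 89396713 to 89463540) had 3, 1 and 6 reads in vehicle 1 to 3 and 3, 32, 88, 31 and 50 reads in doxorubicin 1 to 5. Doxorubicin 1 stayed at the vehicle level, while the other 4 doxorubicin libraries were above all vehicle libraries. The level went from 0.237 ± 0.180 to 2.00 ± 1.45 CPM (SD, n = 3 and n = 5), a rise with a log2 fold change of 3.05 (SE 0.95, edgeR adjusted p = 0.0429). With 10 vehicle reads in all, its size is not well determined, and CP entered the test only through the doxorubicin libraries. With no filter the values were 3.04 and 0.0432, and without doxorubicin 4 and 5 CP was below the filter. The call was lost without any 1 of vehicle 1 to 3 or doxorubicin 2 to 4 (adjusted p from 0.0537 to 0.143) and with limma voom (0.0503). Ceruloplasmin of the blood comes from the liver, and the 6 hepatocyte markers summed to 31.3 to 48.8 CPM in vehicle and 31.3 to 42.8 CPM after doxorubicin. Of those tested ALB fell and APOA1 did not pass, 4 were below the filter, and TTR averaged 0 CPM in vehicle and 0.0100 CPM after doxorubicin. The part of blood or liver RNA in the level of CP was not tested.

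SLC40A1 (gene 100737517, chromosome 15, 94140635 to 94161793) was at 93.5, 89.9 and 89.0 CPM in vehicle and at 91.7, 61.3, 64.0, 90.0 and 201 CPM after doxorubicin. Doxorubicin 5 had the highest level of all libraries and doxorubicin 2 and 3 the lowest, on both sides of a tight vehicle group. The log2 fold change of 0.16 (SE 0.36, edgeR adjusted p = 0.768) turned to −0.24 without doxorubicin 5 and to −0.28 with limma voom.

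Neither sensor passed by edgeR. Limma voom called IREB2 lower (−0.53, adjusted p = 0.0110), as it did 4021 of all 14938 genes. ACO1, the cytosolic aconitase that becomes iron regulatory protein 1 when it lacks its iron-sulfur cluster (gene 100628006, chromosome 10, 33937833 to 34001895), was at 88.4 to 89.5 CPM in vehicle and 61.3 to 89.8 CPM after doxorubicin. Its log2 fold change was −0.21 (SE 0.15, edgeR adjusted p = 0.305), and 0.15 with library size only. IREB2, iron regulatory protein 2 (gene 100153993, chromosome 7, 47481539 to 47529199), was at 34.6, 21.2 and 34.8 CPM in vehicle and 13.6 to 28.1 CPM after doxorubicin. Vehicle 2 lay within the doxorubicin range, and the log2 fold change was −0.45 (SE 0.25, edgeR adjusted p = 0.196). The log2 ratio of IREB2 to ACO1 reads was −1.59 ± 0.40 in vehicle and −1.82 ± 0.30 after doxorubicin (SD, n = 3 and n = 5; exact permutation p = 0.393, adjusted over 3 ratios 0.589).

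Uptake was also set against storage through the ratio of TFRC to FTH1 reads, since the sensors are known to act on these mRNAs in opposite ways. There were 17.7, 35.5 and 36.9 FTH1 reads per TFRC read in vehicle and 28.9, 22.4, 37.96, 14.6 and 85.1 after doxorubicin. Doxorubicin 4 was below and doxorubicin 3 and 5 above all vehicle libraries. The log2 ratio of TFRC to FTH1 was −4.83 ± 0.60 in vehicle and −4.97 ± 0.95 after doxorubicin (SD, n = 3 and n = 5), and the difference of −0.14 had an exact permutation p of 0.893, the same when adjusted over the 3 ratios. It turned to 0.20 without vehicle 1 and to 0.22 without doxorubicin 5.

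Levels of different genes were compared per kilobase of the gene model. In vehicle the order was FTH1 (1918 ± 352 CPM per kilobase), FTL (300.2 ± 85.4), NCOA4 (38.2 ± 0.177), TFRC (28.3 ± 6.53), SLC40A1 (25.9 ± 0.677), ACO1 (24.6 ± 0.163), STEAP3 (8.91 ± 0.290), IREB2 (8.69 ± 2.24), SLC11A2 (2.62 ± 0.292) and CP (0.0397 ± 0.0301; SD, n = 3 for each). Neighbours whose vehicle libraries overlapped were TFRC with SLC40A1, and STEAP3 with IREB2. FTH1 ranked 30 among all tested genes on this scale in vehicle and 21 after doxorubicin, and FTL ranked 222 and then 68. After doxorubicin NCOA4 (25.3 ± 5.41 CPM per kilobase, n = 5) stood below TFRC (30.8 ± 15.1) and SLC40A1 (29.0 ± 16.3), with overlapping libraries. STEAP3 (4.19 ± 1.58) was below IREB2 (6.36 ± 1.55) in all 5 doxorubicin libraries, where 1 of 3 vehicle libraries had STEAP3 above IREB2.

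The doxorubicin libraries were not alike. Doxorubicin 5 had the highest level of all 8 libraries for FTH1, FTL and SLC40A1 and the lowest for TFRC, SLC11A2, STEAP3, NCOA4, ACO1 and IREB2, so it was at an end of the range for 9 of 10 genes. No other library was at an end for more than 3. On the log2 scale against the vehicle mean, with 0.05 CPM added, FTL was at 0.63, 0.86, 1.5999, 0.44 and 2.70 in doxorubicin 1 to 5. STEAP3 was at −1.22, −0.78, −1.48, −0.49 and −1.89 in the same libraries. Doxorubicin 3 and 5 had the highest FTL and the lowest STEAP3 and NCOA4, and doxorubicin 4 had the smallest differences in FTL and STEAP3. The fibroblast marker sums, made up mostly of collagen mRNA, were 6323 and 27032 CPM in doxorubicin 3 and 5, and 2574 CPM in doxorubicin 4. The part of other cell types in these differences was not tested.

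**Figure D3:**
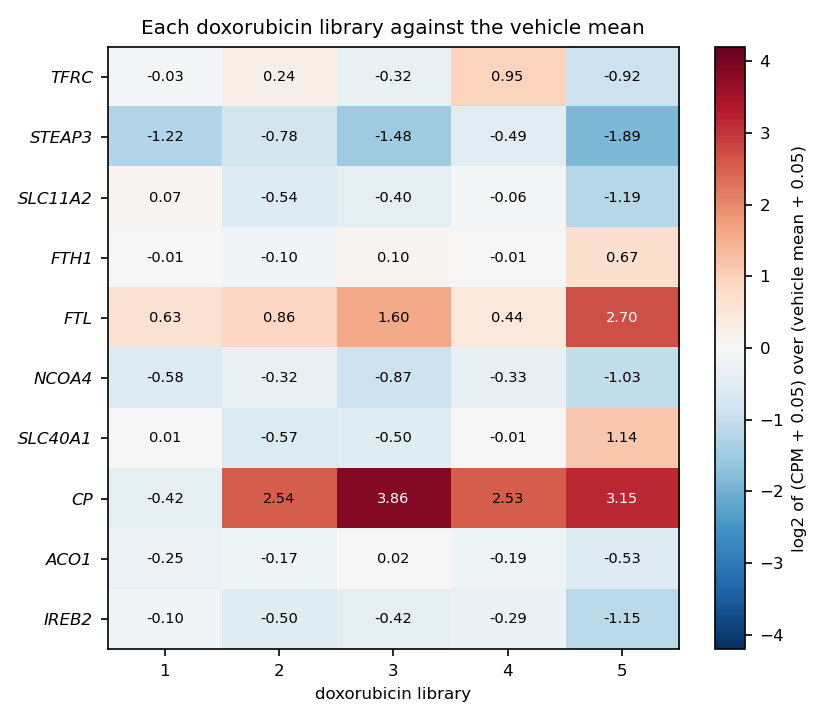
Log2 of the level in each doxorubicin library over the vehicle mean (0.05 CPM added to both) for the 10 iron genes, red above and blue below vehicle. STEAP3 and NCOA4 are below 0 and FTL above 0 in all 5 columns, CP is above 0 in all but doxorubicin 1, and the fifth column is the farthest from 0 for most rows.

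From the same fit, 65 further genes of iron handling were looked for in 6 lists. TMEM14C and BOLA2 had no row under these symbols and were not analysed here, and the others had 64 rows, of which 55 were tested and 9 were below the filter. These lists were drawn up with earlier results of these data known, so their counts are a description. Of these 4 rose, 5 fell and 46 did not pass, with a median log2 fold change of −0.03. The called shares are to be read against 13.6% higher and 11.3% lower over all genes. With library size only, 11 were called higher and 2 lower, against 4093 and 499 of all 14938 genes.

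**Figure D4:**
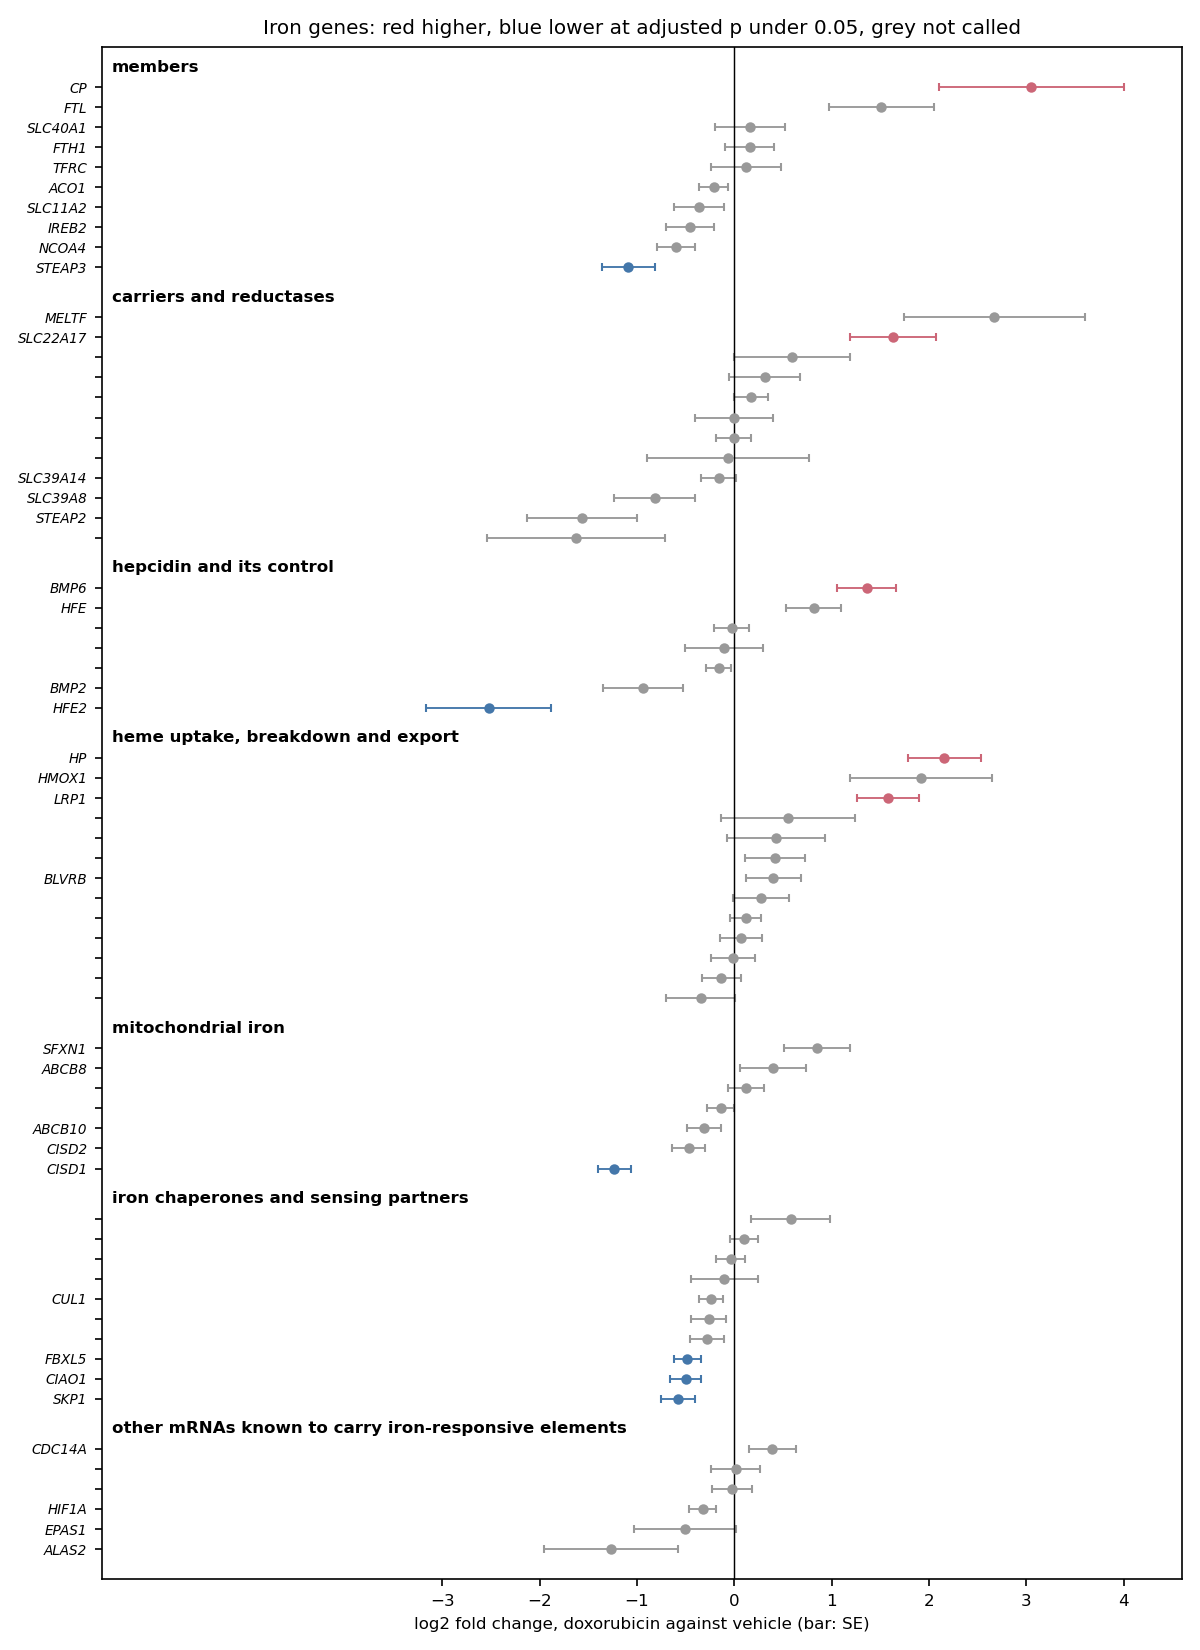
Log2 fold change (doxorubicin against vehicle, bars are SE) of the 10 iron genes and of 55 tested genes in 6 other iron lists (gene symbols are given for those chosen for description), red where higher and blue where lower at the threshold and grey elsewhere. The list with most calls is that of chaperones and sensing partners, with 3 of 10 lower, against 11.3% lower over all genes. CP, with 3.05, has the largest positive and HFE2, with −2.53, the largest negative value.

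Among 12 tested carriers and reductases 1 rose and 0 fell. SLC22A17, a receptor for the iron-binding lipocalin LCN2, rose from 6.53 ± 1.03 to 20.2 ± 11.6 CPM (SD, n = 3 and n = 5; log2 fold change 1.63, SE 0.44, edgeR adjusted p = 0.0269). It lost its call without any 1 of the 3 vehicle libraries or doxorubicin 3 (adjusted p up to 0.104) and with the density trend removed (0.0559). LCN2 itself was at 4.09 ± 1.75 and 4.08 ± 1.74 CPM. The membrane transferrin homologue MELTF (2.67, adjusted p = 0.0609), the reductase STEAP2 (−1.56, adjusted p = 0.0679) and the metal carrier SLC39A8 (−0.82, adjusted p = 0.167) did not pass. MELTF had 2, 1 and 4 reads in vehicle 1 to 3. Like CP, it entered the test only through the doxorubicin libraries, where it is high, so its size is not well determined. SLC39A14, which takes up iron not bound to transferrin, was at 145 ± 14.95 and 129 ± 21.9 CPM (−0.16, adjusted p = 0.535). Transferrin (TF), listed in 2 rows, had at most 7 reads in any library and was below the filter.

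Of 7 tested genes around hepcidin, 1 rose, 1 fell and 5 did not pass. BMP6, a ligand known to induce hepcidin, rose from 5.37 ± 0.206 to 13.8 ± 4.72 CPM (log2 fold change 1.36, SE 0.30, edgeR adjusted p = 0.0143). Hemojuvelin, the coreceptor for that signal (HJV, in the table as HFE2), was at 22.7, 45.1 and 24.0 CPM in vehicle and at 4.04, 5.71, 0.934, 13.2 and 2.70 CPM after doxorubicin. All doxorubicin libraries were below all vehicle libraries, and the log2 fold change was −2.53 (SE 0.64, edgeR adjusted p = 0.0222). BMP6 and HFE2 both lost their calls without any 1 of the 3 vehicle libraries, with adjusted p up to 0.0645 and 0.0809, and HFE2 also with no filter (0.0681). HFE (0.82, adjusted p = 0.0591) and BMP2 (−0.94, adjusted p = 0.118) did not pass. HAMP, which encodes hepcidin, had 0 to 2 reads in vehicle and 0 to 19 after doxorubicin and was below the filter.

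Heme handling had 2 higher, 0 lower and 11 not passing of 13, with a median of 0.40. HP, haptoglobin, which binds free haemoglobin, rose from 0.799 ± 0.149 to 3.59 ± 1.07 CPM (log2 fold change 2.16, SE 0.38, edgeR adjusted p = 0.00793). LRP1, a scavenger receptor for heme bound to hemopexin among many ligands, rose from 72.7 ± 15.7 to 217 ± 79.3 CPM (1.58, SE 0.32, edgeR adjusted p = 0.0116), but not without vehicle 3 (adjusted p = 0.0589). HMOX1, the inducible enzyme that breaks heme down and frees its iron, was at 5.36 to 9.31 CPM in vehicle and at 8.89, 21.2, 19.9, 9.54 and 78.2 CPM after doxorubicin. It did not pass (1.92, SE 0.73, edgeR adjusted p = 0.0805), and its log2 fold change was 1.03 without doxorubicin 5. BLVRB, a biliverdin reductase, had 0.40 (adjusted p = 0.316). CD163, the haemoglobin scavenger receptor that is also in the macrophage list, had 0.42 (adjusted p = 0.333).

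Mitochondrial iron genes had 0 higher, 1 lower and 6 not passing of 7, with a median of −0.14. CISD1, an iron-sulfur protein of the outer membrane, fell from 285 ± 10.6 to 121 ± 19.4 CPM (log2 fold change −1.23, SE 0.17, edgeR adjusted p = 0.00525), and CISD1 passed under each of 19 alternatives. CISD2, its relative in the endoplasmic reticulum, had −0.47 (adjusted p = 0.0653). The mitochondrial carrier SFXN1 had 0.85 (adjusted p = 0.0910), and ABCB10, a transporter of the inner membrane, had −0.31 (adjusted p = 0.213). ABCB8, named before in iron export from mitochondria, was at 17.8 ± 2.46 and 23.4 ± 9.11 CPM (0.40, adjusted p = 0.403). The mitochondrial ferritin FTMT was listed with 0 reads in all 8 libraries.

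Chaperones and partners of the sensors had 0 higher, 3 lower and 7 not passing of 10, with a median of −0.25. FBXL5, the iron-sensing receptor that marks iron regulatory proteins for breakdown, fell from 75.0 ± 4.96 to 53.7 ± 5.04 CPM (log2 fold change −0.48, SE 0.13, edgeR adjusted p = 0.0299). SKP1, a subunit of the same ligase, fell from 389 ± 0.935 to 260.5 ± 41.9 CPM (−0.58, SE 0.17, adjusted p = 0.0383), and CUL1, its scaffold, had −0.24 (adjusted p = 0.163). CIAO1, which delivers iron-sulfur clusters in the cytosol, fell from 84.3 ± 3.90 to 59.6 ± 9.16 CPM (−0.50, adjusted p = 0.0440). FBXL5, SKP1 and CIAO1 lost their calls under 9, 10 and 11 of 19 alternatives, library size only among them (−0.13, −0.22 and −0.15). PCBP1 and PCBP2, which carry iron to ferritin, had log2 fold changes of 0.10 and −0.04.

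None of 6 other mRNAs known to carry iron-responsive elements was called by edgeR or by DESeq2. Limma voom called 2 lower (ALAS2 and HIF1A), against 4021 lower of all 14938 genes. At an unadjusted p under 0.05 edgeR had 1, HIF1A, a hypoxia factor (log2 fold change −0.33, adjusted p = 0.101). ALAS2 (−1.27, adjusted p = 0.191), which is also a red cell marker, CDC14A (0.39, adjusted p = 0.248) and EPAS1, another hypoxia factor (−0.51, adjusted p = 0.492), did not pass.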

How the data were processed

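The authors deposited raw counts per gene for 8 heart libraries. Per the labels' protocols, column-purified total RNA went into a SMARTER mRNA kit. Aligner, counter and strand setting are unstated in those labels, so reads shared with overlapping, antisense or near-identical genes cannot be separated. The table's gene names and gene model lengths were used, and 30335 identifiers had the same start and end in RefSeq's Sscrofa11.1 table. The genes and lists were chosen with earlier results of these data known, and some list genes are not reported here and were left out of the list counts.

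Counts were fitted in edgeR 4.0.16 (R 4.3.3): filterByExpr (minimum count 10, minimum total 15), TMM, robust quasi-likelihood test, treatment as the only term, two-sided. SE is the log2 fold change over the root of F. Ratios of reads were tested by exact permutation (scipy 1.17.1). Alternatives were RLE factors, scaling by library size, no filter, a filter at 1 CPM in 3 libraries, TMM factors computed after dropping the 20 top genes with mitochondrial and haemoglobin genes, DESeq2 1.42.0, voom quality weights (limma 3.58.1), a replicate block, removal of trends with gene density (500 kb, span 0.3) or length, added near-identical copies, a pseudocount of 10 for ratios, and each library left out. The fit without doxorubicin 4 and 5 was added after the data were seen. Libraries of a group differed by 17.2 to 284 times sampling noise, so none was a copy. Named were the 10 genes, 7 fixed others (HMOX1, HAMP, TF, FTMT, ABCB8, SLC39A14 and FBXL5) and up to 4 genes of smallest p in each list. HEPHL1, cell markers, LCN2, PCBP1, PCBP2 and CD163 were named after their values were seen.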

Additional observations from a re-analysis of the deposited data

Results flagged for a closer look

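In a group of 5 doxorubicin libraries, a gap from the highest or lowest library to the next that took over 0.710 of the range was looked for in 39 measures, and 7 had one. Chance would give about 1 in 20 such groups if the values were normally distributed. CPM values need not be, and all measures share the same 5 libraries, so that rate is only a guide. Of the 7 flagged measures 6 had the same library at the end. Doxorubicin 5 stood above the others for FTH1 (3043 CPM, others 1790.4 to 2058), SLC40A1 (201 CPM, others 61.3 to 91.7) and HMOX1 (78.2 CPM, others 8.89 to 21.2). It also did so for MELTF (3.0005 CPM, others 0.363 to 0.981), CISD2 (23.4 CPM, others 16.5 to 17.5) and SKP1 (335 CPM, others 240.1 to 244). Doxorubicin 1 stood above the others for ALAS2 (2.67 CPM, others 0.250 to 0.726).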

How the results depend on the processing

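Over 36 single genes and 686 alternative values, 561 kept direction and side of the threshold, 54 lost a call, 56 gained one and 15 changed sign, and 0 of the sign changes passed the test. CISD1 and HP passed under each alternative run. With 1 library left out, the count of all genes ran from 334 to 2472 higher and 315 to 2265 lower, that of the 10 iron genes from 0 to 2 and 0 to 2, and that of the other iron genes from 1 to 8 and 1 to 7. The log2 ratio differences ran from −1.31 to −0.91 (FTH1 to FTL), −0.42 to 0.22 (TFRC to FTH1) and −0.46 to −0.11 (IREB2 to ACO1), and no ratio passed. TFRC to FTH1 changed sign without vehicle 1 (0.20) and doxorubicin 5 (0.22).

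With library size only, all genes gave 4093 higher and 499 lower, the 10 genes 2 and 0, the other iron genes 11 and 2, and ACO1 (0.15), SLC39A14 (0.19), CUL1 (0.11), ABCB10 (0.042) and HIF1A (0.030) changed sign. Limma voom gave 4030 and 4021 over all genes, 4 lower among the 10 (IREB2, NCOA4, SLC11A2 and STEAP3) and 10 higher and 15 lower among the others, with changed signs for SLC40A1 (−0.28), FTH1 (−0.10) and SLC39A14 (0.0095). DESeq2 gave 2824 and 2121 over all 14938 genes, 2 higher and 2 lower of the 10 and 7 higher of the others. The 10 genes had 2 lower calls with CPM above 1 in at least 3 libraries (1694 of 13883 over all genes). They also had 2 with normalization without the most abundant genes (1641 of 14938) and without doxorubicin 4 and 5 (1851 of 14443). Without the length trend the 10 had 2 higher and 2 lower, against 2235 and 2060 of 14938 over all genes. The other iron genes had 1 lower call with no filter (1265 of 23309 over all genes) and 3 without the density trend (1342 of 14938). FTH1 was at −0.13 without that trend. With 1 library left out TFRC ran from −0.20 (without doxorubicin 4) to 0.32, and SLC40A1 from −0.24 (without doxorubicin 5) to 0.30. Where a cause is not given here, the cause was not tested.

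The replicate numbers are shared by the groups, and the labels name no pairing. Same-numbered libraries did not visibly deviate together (r from −0.0031 to 0.043, with 0.13 for vehicle 1 and doxorubicin 3). So few pairs cannot exclude a pairing. The replicate block on 6 libraries gave 2017 higher and 1636 lower calls over all genes, TFRC at −0.0045 and SLC40A1 at −0.34; the same 6 libraries without the block gave −0.010 and −0.32. Depth limits CP, MELTF, HAMP, TF and HEPHL1, with few or no vehicle reads.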

Other observations

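HEPHL1, a ferroxidase of the hephaestin family, was below the filter and was picked out after its values were seen. It had 0 reads in each of the 3 vehicle libraries and 2, 16, 9, 0 and 136 reads in doxorubicin 1 to 5. HEPH, its relative that works with ferroportin in the gut, had a mean of 0.352 CPM in vehicle and 0.368 CPM after doxorubicin.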
